A study of Mus musculus with 12 samples.

Results

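The IFITM family genes of the mouse were followed through cultured regulatory T cells (Tregs) that were kept with soluble IL-2, without it, or with an IL-2 tethered to its own receptor. The members were the genes whose symbol is Ifitm1, Ifitm2, Ifitm3, Ifitm6 or Ifitm10, and all 5 had a row among the 55228 gene symbols of the expression table. They were selected on their measured TPM in EV+IL-2 and EV no IL-2 Tregs, which were known when the family was picked, so that comparison is given for them as a description with no test. Bulk RNA was measured in 12 libraries, 3 in each of 4 groups. By the labels, all cells were CD4+ lymph node Tregs pooled from 16 NOD.Foxp3-GFP mice of unstated age, sorted as Foxp3.GFP+CD25+ on 3 machines, and the 3 parts were activated separately. The study's general methods for Tregs differ, naming spleens beside lymph nodes and a sort that also used CD62L. Each part was divided on day 2 and transduced with empty vector (EV), or with the tether construct 1G12t or 3A10t, in which an engineered IL-2 variant is joined to a matching engineered receptor chain. Every construct carried the surface marker Thy1.1, and Thy1.1+ cells were purified on day 9. On day 4 the cells were washed and kept for 5 more days without IL-2 (EV no IL-2, 1G12t, 3A10t), except that part of the EV cells stayed in medium with IL-2 (EV+IL-2). All groups had therefore been in IL-2 before the wash. The 3 replicates of a group are separate cultures of one pool of cells and not separate animals, so p-values measure the spread between cultures, and a replicate number marks a shared sort.

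IFITM proteins are small membrane proteins with a CD225 domain that sit in the plasma membrane and in endosomes, where they hinder the fusion of enveloped viruses with the host membrane. Ifitm1, Ifitm2 and Ifitm3 are classical interferon-stimulated genes. Interferons act through STAT proteins and IRF9 on a DNA element called the ISRE, and STAT dimers, including the IL-2-activated STAT5, bind a second element called GAS. Ifitm3 protein is the best studied block to influenza virus, and it is also found in memory T cells. Ifitm6 is known from myeloid cells, and Ifitm10 is the most divergent member and is not a classical interferon target.

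By the GENCODE M21 annotation on GRCm38, 4 of the members lie in one block of 69.0 kb on chromosome 7 (chr7:140948958-141017924). From one end to the other this block holds Ifitm5, Ifitm2 (140954837 to 140955987, minus strand), Ifitm1 (140967221 to 140969825, plus strand), Ifitm3 (141009586 to 141010770, minus strand) and Ifitm6 (141015699 to 141017924, minus strand). Ifitm10 (142325837 to 142373753, minus strand) lies 1308 kb beyond the block on the same chromosome. Over the bases that aligned without a gap, the coding sequences of Ifitm1, Ifitm2 and Ifitm3 were 80.9% to 82.1% identical to each other. Those of Ifitm6 and Ifitm10 were 65.7% to 69.3% identical to the other members. Of the 603 coding bases of Ifitm10, only 313 to 390 aligned with another member, and the rest is left out of these values.

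The sequences before the starts of Ifitm1, Ifitm2 and Ifitm3 are shown because these are the members that were highest in EV+IL-2 Tregs and because interferon elements near the start are what the family is known for. They are the RefSeq sequence of the C57BL/6J reference on GRCm38.p6, with the NOD sequence not analysed here, from 250 bases before the annotated start to the first base of an annotated exon. All 5 members matched the RefSeq promoter table. The starts are those of RefSeq, and the Ifitm1 sequence lies inside the GENCODE bounds given for that gene above. Letters that match the ISRE core (GAAA, any 2 bases, GAAA) or GAS (TTC, any 3 bases, GAA) on either strand are in capitals.
Ifitm1, chr7:140967826-140968027, plus strand: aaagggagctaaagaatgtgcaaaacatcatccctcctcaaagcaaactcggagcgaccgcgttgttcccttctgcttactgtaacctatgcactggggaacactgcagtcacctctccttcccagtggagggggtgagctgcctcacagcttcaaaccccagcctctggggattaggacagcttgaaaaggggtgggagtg
Ifitm2, chr7:140955988-140956211, minus strand: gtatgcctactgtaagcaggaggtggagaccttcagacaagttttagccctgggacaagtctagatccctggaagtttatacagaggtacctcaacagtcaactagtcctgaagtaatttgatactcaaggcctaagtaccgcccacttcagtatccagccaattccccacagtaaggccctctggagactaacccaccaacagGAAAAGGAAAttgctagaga
Ifitm3, chr7:141010771-141010994, minus strand: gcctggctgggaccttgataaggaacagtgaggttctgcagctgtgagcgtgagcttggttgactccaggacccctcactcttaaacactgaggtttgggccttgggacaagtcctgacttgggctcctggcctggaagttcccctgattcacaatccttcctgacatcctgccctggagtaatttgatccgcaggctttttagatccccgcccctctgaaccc
Ifitm3 motif site, chr7:141010716-141010742, minus strand: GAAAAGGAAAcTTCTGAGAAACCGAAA

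In windows from 250 bases before to 30 bases after the annotated start, Ifitm2 held 1 ISRE core, at −46 to −37. Ifitm3 held 2 ISRE cores, at 3 to 12 and at 20 to 29 after the start, with a GAS match at 14 to 22 that overlaps the second core, and these make up the motif site shown. Ifitm6 held 1 GAS match at −10 to −2. Neither motif was found in the windows of Ifitm1 and Ifitm10. The windows of Ifitm1 and Ifitm6 lie inside the GENCODE bounds of these genes, so sequence before their outermost GENCODE starts was not searched. Of all 32851 RefSeq windows of the same length, 3.3% held an ISRE core, 7.8% held a GAS match and 0.4% held both. A match is a description of the letters and not a measured binding site.

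Ifitm2 was the most abundant member in every library, and Ifitm1, Ifitm2 and Ifitm3 were far higher in EV+IL-2 Tregs than in any other group. Levels are given as scaled TPM, that is TPM divided by a factor per library that evens out the typical gene, and TPM are abundances per transcript length, so members can be compared with each other. Ifitm1 was at 1.15, 1.48 and 1.05 in EV no IL-2 replicates 1, 2 and 3, and at 71.86, 53.29 and 67.15 in EV+IL-2. The means were 1.23 ± 0.226 and 64.1 ± 9.65 (SD, n = 3), a ratio of 52.2 and a log2 difference of 4.86 on the log2(scaled TPM + 1) scale, which understates the change of low genes.

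Ifitm2 was at 109.63, 116.90 and 94.80 in EV no IL-2 and at 1044.83, 1083.93 and 1025.32 in EV+IL-2. Its mean level went from 107.1 ± 11.3 to 1051 ± 29.9, a ratio of 9.82, and the EV+IL-2 libraries were close to each other. Ifitm3 was at 18.96, 20.06 and 15.17 in EV no IL-2 and at 234.77, 207.98 and 201.15 in EV+IL-2. Its mean level went from 18.1 ± 2.57 to 214.6 ± 17.8, a ratio of 11.9. For each of these 3 genes the lowest EV+IL-2 library lay above every library of the other groups.

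Ifitm6 and Ifitm10 were at the low end. Ifitm6 was at 0.27, 0.68 and 0.59 in EV no IL-2 and at 2.26, 2.77 and 4.25 in EV+IL-2, a ratio of means of 6.05. Its mean over the 12 libraries was 1.12 TPM as deposited, and 0.466 TPM without EV+IL-2, so it reached the minimum of 1 TPM for testing through the EV+IL-2 libraries. Ifitm10 went the other way, at 1.48, 1.83 and 1.82 in EV no IL-2 and 1.24, 1.19 and 0.67 in EV+IL-2, a ratio of means of 0.602. The EV+IL-2 and EV no IL-2 libraries did not overlap for any of the 5 members, 4 above and Ifitm10 below. Of the 15043 genes with a mean of at least 1 TPM, 39.6% had groups that did not overlap in this comparison, which the choice of members used.

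**Figure D1:**
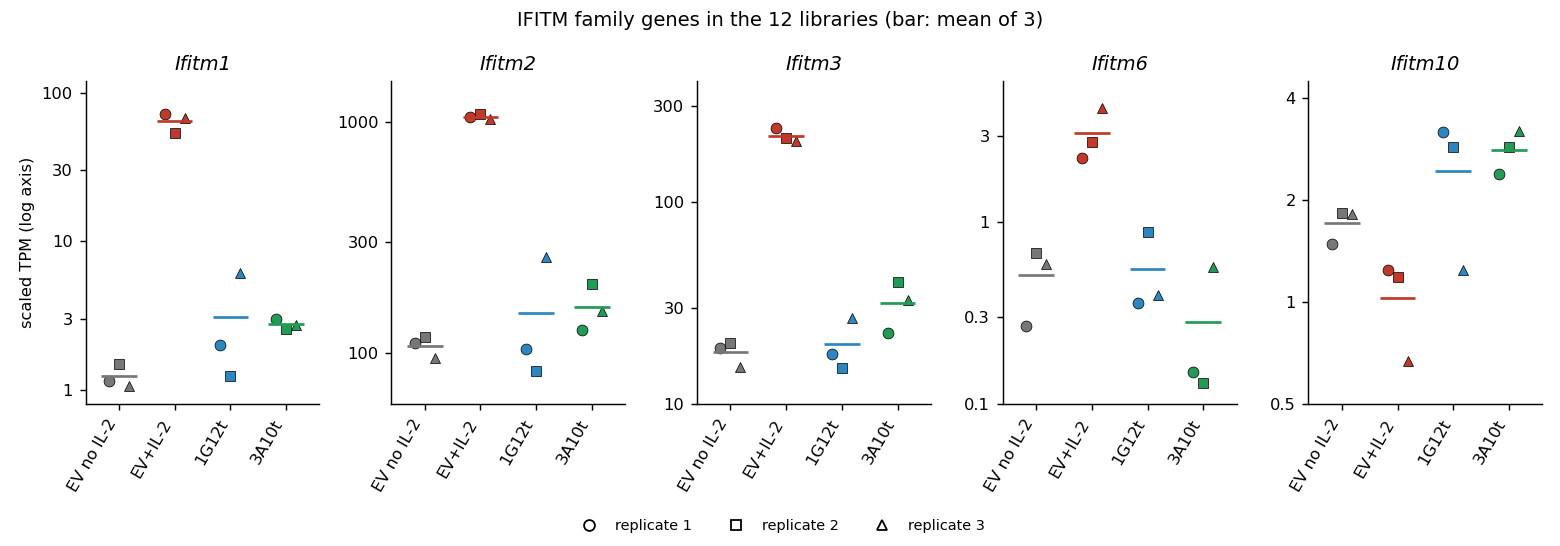
Scaled TPM of the 5 IFITM family genes on log axes, 1 panel per gene with its own axis range, 1 symbol per library (circle, square and triangle for replicates 1, 2 and 3) and a bar at the mean of 3 libraries. EV+IL-2 Tregs (red) lie above all others for Ifitm1, Ifitm2, Ifitm3 and Ifitm6 and below EV no IL-2 for Ifitm10, and replicate 3 of 1G12t (blue triangle) lies above the other 1G12t libraries for Ifitm1, Ifitm2 and Ifitm3.

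Within a sort, the EV+IL-2 level of Ifitm2 was 9.53, 9.27 and 10.8 times that of EV no IL-2 in sorts 1, 2 and 3. The same ratio was 12.4, 10.4 and 13.3 for Ifitm3 and 62.5, 36.0 and 64.0 for Ifitm1, so the ratio of Ifitm1 was the largest of the 3 in every sort. The 5 members summed to 128.6 ± 13.99 scaled TPM in EV no IL-2, and their sum was 1334 ± 31.03 in EV+IL-2 (SD, n = 3). Ifitm2 made up 83.3% ± 0.331 of that sum in EV no IL-2 against 78.8% ± 1.62 in EV+IL-2, and Ifitm3 made up 14.01% ± 0.557 against 16.1% ± 1.08. The share of Ifitm1 went from 0.950% ± 0.0907 to 4.81% ± 0.746. Among the 15043 genes ranked by their mean level in EV+IL-2, 102 stood above Ifitm2, 822 above Ifitm3 and 2996 above Ifitm1. Ranked by EV no IL-2 levels, the same counts were 1786, 6660 and 13340.

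In 3A10t Tregs, Ifitm1, Ifitm2, Ifitm3 and Ifitm10 lay above EV no IL-2 in all libraries. Their ratios of mean scaled TPM were 2.25, 1.48, 1.76 and 1.65, with Ifitm1 and Ifitm10 at low levels. None of these 4 members passed the test across all genes (limma, two-sided, adjusted p under 0.05). The EV no IL-2 libraries shared in the choice of members, so tests of either tether against them are not free of that choice. Ifitm6, which stayed under the minimum of 1 TPM without the EV+IL-2 libraries, is given by its values alone. Ifitm3 was at 22.42, 40.33 and 32.82 in 3A10t, a mean of 31.9 ± 8.99 against 18.1 ± 2.57 in EV no IL-2. Its log2 fold change was 0.76 (standard error 0.23, 95% interval 0.25 to 1.26, adjusted p = 0.095, limma). All 3 of its 3A10t libraries lay above all 3 of EV no IL-2, with replicate 1 nearest to the control.

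Ifitm1 was at 3.00, 2.54 and 2.74 in 3A10t, a mean of 2.76 ± 0.232 against 1.23 ± 0.226. Its log2 fold change was also 0.76 (standard error 0.33, 95% interval 0.03 to 1.48, adjusted p = 0.18, limma), and its 3A10t libraries were alike. Ifitm2 was at 125.33, 198.10 and 151.72, a mean of 158.4 ± 36.8 against 107.1 ± 11.3 (log2 fold change 0.54, 95% interval −0.20 to 1.28, adjusted p = 0.32, limma). Ifitm10 was at 2.39, 2.87 and 3.20 in 3A10t (log2 fold change 0.49, 95% interval −0.03 to 1.01, adjusted p = 0.21). Ifitm6 was at 0.15, 0.13 and 0.57 in 3A10t, against 0.27, 0.68 and 0.59 in EV no IL-2. Its 3A10t replicates 1 and 2 lay below every EV no IL-2 library, and replicate 3 lay within their range.

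Thus 0 of the 4 members were called in 3A10t against EV no IL-2, where 2.05% of all genes tested were called. At an unadjusted p under 0.05, 2 members passed, Ifitm1 and Ifitm3, beside 26% of all genes. At an unadjusted p under 0.01 with a log2 fold change beyond 0.25, 1 member passed, Ifitm3, beside 9.5% of all genes. The groups did not overlap for these 4 members, all with 3A10t above, and 13.3% of all genes had 3A10t libraries above all EV no IL-2 libraries. Single libraries decided these calls. Without 3A10t replicate 1, Ifitm3 passed (log2 fold change 0.98, adjusted p = 0.0099, limma), but so did 23.2% of all genes in that fit. Without 1G12t replicate 3, which is in neither group but shares in the fit, Ifitm1 passed (log2 fold change 0.76, adjusted p = 0.045), with 1.61% of all genes.

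In 1G12t Tregs the members overlapped EV no IL-2 for all 5 genes, where 16.5% of all genes did not overlap. With Ifitm6 again set aside, 0 of 4 passed the test (limma, adjusted p under 0.05), beside 0.0199% of all genes, and 0 had an unadjusted p under 0.05, beside 7.04%. Ifitm1 was at 2.01, 1.23 and 6.06 in 1G12t (log2 fold change 0.71, 95% interval −0.02 to 1.43, adjusted p = 0.71). Ifitm2 was at 103.52, 83.57 and 258.71 (log2 fold change 0.29, 95% interval −0.45 to 1.03, adjusted p = 0.84). Replicate 3 was the high library in both, and the other libraries lay near EV no IL-2. Ifitm3 was at 17.63, 15.14 and 26.66 (log2 fold change 0.10, 95% interval −0.41 to 0.60, adjusted p = 0.93). Without 1G12t replicate 3 the log2 fold changes of Ifitm2 and Ifitm3 were −0.19 and −0.13. Ifitm6 was at 0.36, 0.89 and 0.40, and Ifitm10 was at 3.19, 2.88 and 1.24, with replicate 3 the lowest.

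The library labelled 1G12t replicate 3 also stood apart in genes that are not IFITM members, which were singled out after their values were seen. Gzmb, which encodes the cytotoxic protease granzyme B, was at 47.18, 32.87 and 3.33 in 1G12t replicates 1, 2 and 3. Ly6a, an interferon-stimulated surface protein, was at 109.00, 106.79 and 245.53. Pim2, a survival kinase downstream of STAT5, was at 134.07, 109.59 and 49.43. Over all genes tested, its median absolute log2 distance from the other libraries of its group was 0.188, against 0.148 and 0.134 for replicates 1 and 2. By this measure 3A10t replicates 1 and 2 lay farther from their group, at 0.258 and 0.291. The part of these differences in the IFITM values was not tested.

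The tethers were compared directly, a difference of means that does not use the EV+IL-2 and EV no IL-2 levels. Earlier results of these data were known when the members were chosen, so this test may not be free of that choice either. Ifitm3 was at a mean of 31.9 ± 8.99 in 3A10t and 19.8 ± 6.06 in 1G12t, with overlapping libraries (log2 fold change 0.66, standard error 0.23, 95% interval 0.16 to 1.16, adjusted p = 0.093, limma). For Ifitm1 the difference was 0.05 (95% interval −0.67 to 0.78, adjusted p = 0.94), for Ifitm2 0.25 (−0.49 to 0.99, adjusted p = 0.65) and for Ifitm10 0.20 (−0.32 to 0.72, adjusted p = 0.59). These are 4 genes in 1 pair of constructs, adjusted over all genes tested. In this comparison 0 of the 4 were called, beside 4.27% of all genes, and 1 of them, Ifitm3, had an unadjusted p under 0.05, beside 29.7%. Without 3A10t replicate 1, Ifitm3 passed (log2 fold change 0.89, adjusted p = 0.014) with 27.6% of all genes. The intervals leave room for differences between the tethers of up to 1.16 on the log2 scale for Ifitm3, so similar action is not shown.

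**Figure D2:**
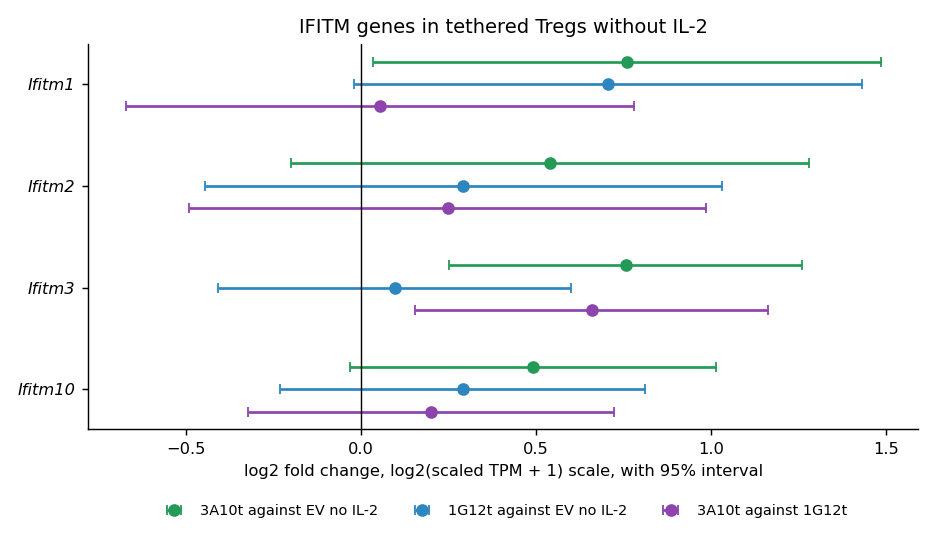
Log2 fold changes of the 4 IFITM genes that reach 1 TPM without the EV+IL-2 libraries, on the log2(scaled TPM + 1) scale with 95% intervals, for 3A10t (green) and 1G12t (blue) against the same 3 EV no IL-2 libraries and for 3A10t against 1G12t (purple). The intervals of Ifitm3 for both comparisons of 3A10t and that of Ifitm1 for 3A10t against EV no IL-2 do not reach 0, and none of the 12 values passed the adjusted threshold. The EV no IL-2 libraries shared in the choice of members.

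The tethered levels are set beside EV+IL-2 as a description only. The members were picked on the EV+IL-2 and EV no IL-2 levels, so the distance between these groups shares in that choice. The same shares over all genes are not given. The mean of 3A10t above EV no IL-2 amounted to 2.44% of the distance between EV no IL-2 and EV+IL-2 for Ifitm1, 5.43% for Ifitm2 and 7.02% for Ifitm3. For 1G12t the same shares were 2.98%, 4.39% and 0.887%, but they rested on replicate 3. Without it they were 0.627% for Ifitm1, −1.44% for Ifitm2 and −0.856% for Ifitm3. Both constructs were set against the same EV no IL-2 libraries. EV+IL-2 was 23.2, 6.64 and 6.74 times as high as 3A10t for Ifitm1, Ifitm2 and Ifitm3, and 20.7, 7.08 and 10.8 times as high as 1G12t, or 39.5, 11.2 and 13.1 times without 1G12t replicate 3. In bulk RNA, fewer cells with the transcript and less transcript per cell cannot be told apart.

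Reads of one IFITM gene can fit another, which bears on how the level is divided. Of the windows of 50 bases, the read length, in the Ifitm2 transcript, 48.5% were also found in another annotated gene, against 5.0% for Ifitm1, 10.0% for Ifitm3, 3.5% for Ifitm10 and 0% for Ifitm6. Most of those of Ifitm2 were shared with Gm45717 (36.1%), a gene model that reaches from Ifitm5 into Ifitm2, and others with processed pseudogenes such as Gm11951 (14.9%) and Gm8865 (12.4%). Gm45717 was at 0.344 ± 0.278 scaled TPM in EV+IL-2 and 0.0803 ± 0.0787 in EV no IL-2, far below Ifitm2. Gm11951 was at 0.729 ± 0.144 and 1.45 ± 0.316, and Gm8865 at 0.312 ± 0.287 and 1.90 ± 0.504, both lower in EV+IL-2 in every library although neither passed the test (adjusted p = 0.14 and 0.080). The paper reports paired reads, so the shares of single windows above are not the shares of read pairs that fit another gene. How the counting divided shared reads was not tested.

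Since the members were picked on the EV+IL-2 and EV no IL-2 levels, their change is not compared with that of genes around the block. On its left, Sirt3, Psmd13 and Pgghg had log2 fold changes of −0.13, 0.19 and 0.24 in EV+IL-2 against EV no IL-2, none past the threshold, and Nlrp6 and Cox8b were too low to test. On its right, B4galnt4 and Pkp3 had log2 fold changes of −0.11 and 0.00 and did not pass, and Gm17387 was listed at 0 in all libraries. Sigirr, an inhibitor of interleukin-1 receptor signaling, fell by 0.46 on the log2 scale (adjusted p = 0.0053, limma), and Ano9, a phospholipid scramblase family member, fell by 0.90 (adjusted p = 0.017). Of the 7 neighbours that could be tested, 0 were higher and 2 lower, beside 8.17% and 5.13% of all genes. Ifitm5, a bone-restricted family member inside the block, was at 0.843 ± 0.395 in EV+IL-2 and 0.252 ± 0.155 in EV no IL-2, under the minimum for testing. It was at 0.752 ± 0.0585 in 1G12t and 0.708 ± 0.0660 in 3A10t, so it was not high in EV+IL-2 alone. None of the 7 was called in 3A10t or 1G12t against EV no IL-2, beside 2.05% and 0.0199% of all genes. In 3A10t, 1 of them, B4galnt4, had an unadjusted p under 0.05 (limma), beside 26% of all genes.

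**Figure D3:**
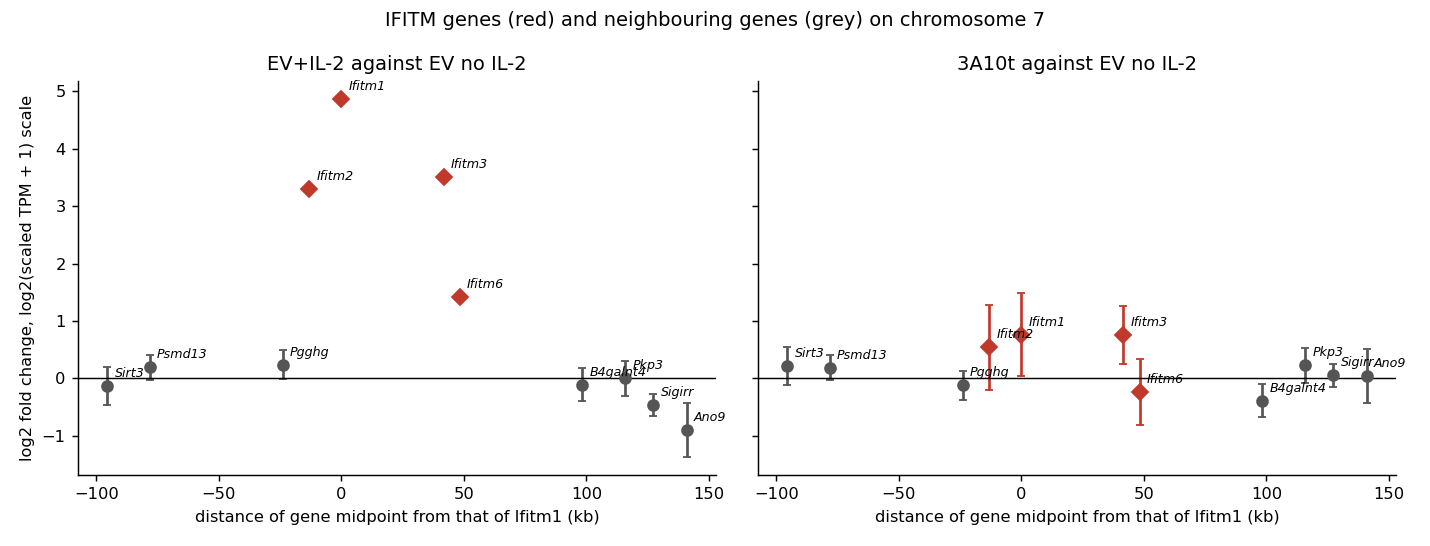
Log2 fold change on the log2(scaled TPM + 1) scale against the distance of the gene midpoint from that of Ifitm1 in kb, for the 4 members of the block (red diamonds) and the 7 neighbours with a mean of at least 1 TPM (grey circles), with 95% intervals except for members in EV+IL-2, where no test is given. In EV+IL-2 the neighbours lie between −0.90 and 0.24. The members stand at 1.42 to 4.86 in the comparison they were chosen on, so the ranges are not compared. Ifitm6, at 1.42, reached 1 TPM only through the EV+IL-2 libraries.

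The other genes of the interferon pathway were counted in lists that were written with earlier results of these data known. Since the members were picked on the EV+IL-2 and EV no IL-2 levels, the size of their change is not compared with that of the lists. Among 21 interferon ligand genes, 0 reached a mean of 1 TPM, and the highest value in an EV+IL-2 library was 0.93 scaled TPM, while the 21 genes summed to 1.04 to 1.51 in EV+IL-2 and 3.52 to 6.17 in EV no IL-2. The mean was lower in EV+IL-2 for 18 of the 21, as it was for 81.4% of all 35176 genes under 1 TPM that were above 0 in a library, and fewer genes were above 0 in the EV+IL-2 libraries (30393 to 36239) than in EV no IL-2 (37930 to 42150). Of 14 tested receptor and relay genes, 2 rose in EV+IL-2 against EV no IL-2 and 2 fell, beside 8.17% and 5.13% of all genes. Those that rose were Irf9, a DNA-binding factor of the type I interferon relay (log2 fold change 0.40, adjusted p = 0.046), and Ifngr1, a chain of the interferon-gamma receptor (0.33, adjusted p = 0.044, and 0.071 with the sort as a block). Jak1, a kinase shared by interferon and IL-2 receptors, fell by 0.57 (adjusted p = 0.015), and Irf8 fell by 0.83 (adjusted p = 5.9e-04).

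Of 36 tested type I interferon-stimulated genes, 10 rose and 1 fell, with a median log2 fold change of 0.45 beside −0.01 over all genes. The largest changes were in Rtp4, a chaperone-like protein (1.62, adjusted p = 0.0068), the exonuclease gene Isg20 (1.52, adjusted p = 8.2e-04), Ly6e, a surface protein that hinders coronavirus entry (1.13, adjusted p = 3.3e-04), and the nucleic acid sensor Zbp1 (0.83, adjusted p = 2.4e-04). Ifit1bl1 fell by 0.76 (adjusted p = 0.040, and 0.065 with the sort as a block). With that block 8 type I genes rose and 0 fell. Of 21 interferon-gamma response genes, 11 rose and 0 fell, with a median of 0.53. They were led by Gbp4 (1.55, adjusted p = 1.0e-05), the immunity GTPases Iigp1 (1.36, adjusted p = 0.0037) and Gbp6 (1.34, adjusted p = 7.6e-04), and Socs1, a feedback inhibitor of cytokine receptors (1.28, adjusted p = 6.0e-05), which also stands in the list of IL-2 and STAT5 induced genes.

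Of 11 tested restriction factors, 1 rose and 0 fell, a count near the 8.17% of all genes called higher. The one was Mov10, an RNA helicase gene, at 112.5 ± 6.12 scaled TPM in EV+IL-2 against 45.0 ± 2.48 in EV no IL-2 (adjusted p = 1.2e-05). Of 8 tested genes for proteins that bind or modify IFITM proteins, such as the palmitoyltransferase gene Zdhhc20 and the protease gene Zmpste24, 0 were called and 0 had an unadjusted p under 0.05, with a median of −0.00. Of the other CD225 domain genes, 2 were tested and 0 called or under 0.05 unadjusted. Of 14 IL-2 and STAT5 induced genes, 11 rose and 1 fell, with a median of 0.89. Gzmb rose by 3.64 (adjusted p = 0.0045), Lif, a cytokine, by 2.56 (adjusted p = 1.3e-05) and Lta, which encodes lymphotoxin alpha, by 1.86 (adjusted p = 6.7e-06). Xcl1, a chemokine gene, fell (adjusted p = 0.0045).

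**Figure D4:**
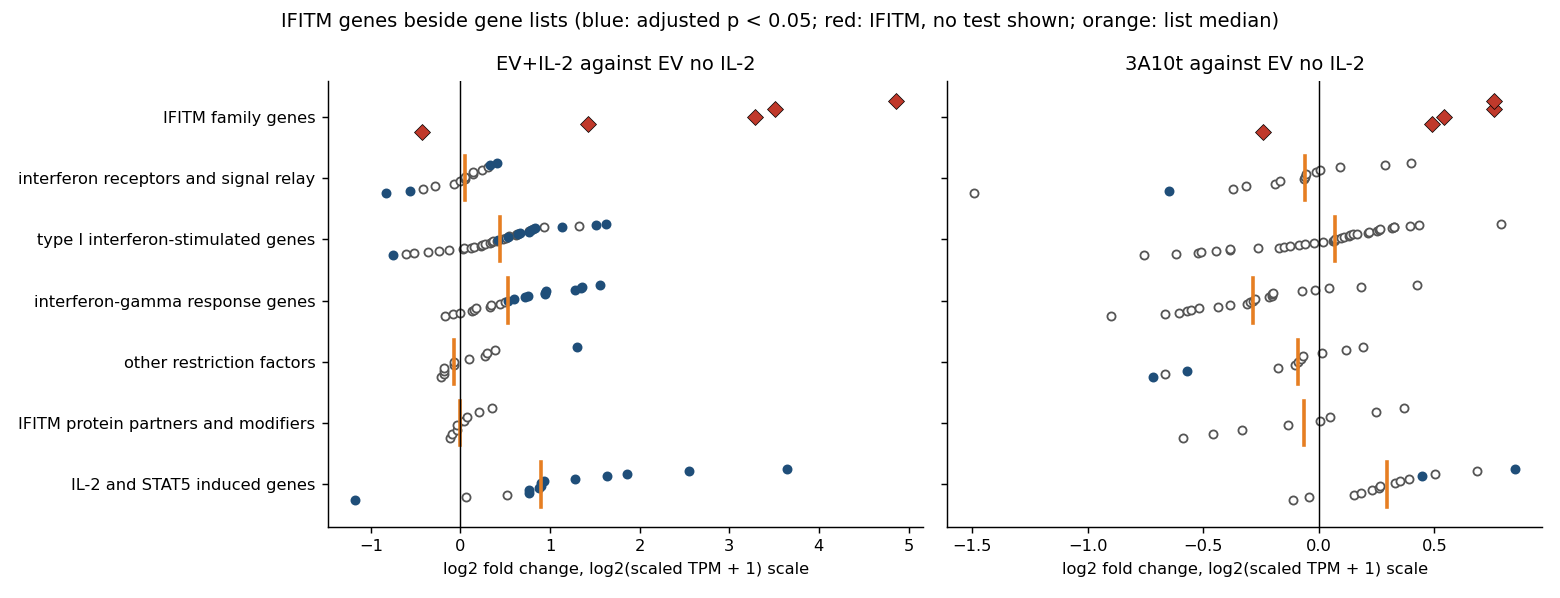
Log2 fold changes on the log2(scaled TPM + 1) scale of the 5 IFITM genes (red diamonds) and of the tested genes of 6 lists in EV+IL-2 and in 3A10t against EV no IL-2, with blue points for an adjusted p under 0.05, open points for the rest and an orange line at each list's median. In EV+IL-2 the medians of the type I and interferon-gamma response lists were 0.45 and 0.53, and in 3A10t the medians of the 2 interferon response lists were 0.07 and −0.29.

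One EV+IL-2 library stood above the others in most type I genes. EV+IL-2 replicate 1 was the highest EV+IL-2 library for 32 of the 36 type I genes. Of 21 interferon-gamma response genes, it was the highest for 6 and replicate 2 for 14. A single library also led elsewhere, as EV no IL-2 replicate 2 did for 17 of the 21 in its group. The share of all genes highest in each library is not given, so these counts are not read as a trait of the listed genes. Ifit1, which encodes an RNA-binding antiviral protein, was at 12.05, 2.24 and 2.25 in EV+IL-2 replicates 1, 2 and 3 and at 1.16, 1.06 and 0.97 in EV no IL-2. Its relative Ifit3 was at 8.44, 0.65 and 1.29 in EV+IL-2. Rtp4 was at 50.42, 27.79 and 21.24, against 8.39 to 11.63 in EV no IL-2. These 3 were singled out after their values were seen. Replicate 1 was also the highest of the 3 for Ifitm1, at 71.86 against 53.29 and 67.15, and for Ifitm3, at 234.77 against 207.98 and 201.15, whereas replicate 2 was the highest for Ifitm2 and replicate 3 for Ifitm6. Without EV+IL-2 replicate 1, 5 type I genes rose and 1 fell, against 10 and 1 with it (limma), and leaving out a library of either group gave 5 to 9 that rose. The count was also 5 when EV no IL-2 lost replicate 3, and 6 when EV+IL-2 lost replicate 2. The share of all genes called in these smaller fits is not given, so the lower counts are not read as a result about the type I genes. The log2 differences of Ifitm1, Ifitm2 and Ifitm3 without EV+IL-2 replicate 1 were 4.78, 3.29 and 3.44.

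**Figure D5:**
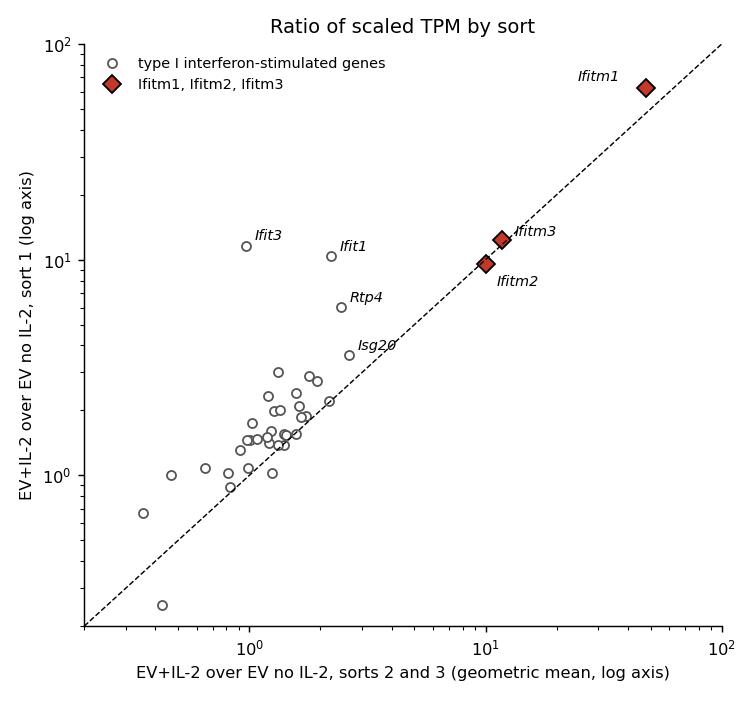
Ratio of scaled TPM in EV+IL-2 to that in EV no IL-2 within sort 1, against the geometric mean of the ratios in sorts 2 and 3, both on log axes, for 36 type I interferon-stimulated genes (open circles) and for Ifitm1, Ifitm2 and Ifitm3 (red diamonds). Above the dashed line of equal ratios lie 32 of the 36 genes, with Ifit3, Ifit1 and Rtp4 farthest from it. The share of all genes above that line is not given. In sort 1, Ifitm1, Ifitm2 and Ifitm3 are at 62.5, 9.53 and 12.4. They were chosen on this comparison and are not set against the type I genes.

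In 3A10t against EV no IL-2, 0 of 36 type I genes and 0 of 21 interferon-gamma response genes were called (limma), with medians of 0.07 and −0.29 beside 0.03 over all genes. At an unadjusted p under 0.05, 3 type I genes were higher and 6 lower, and 1 interferon-gamma response gene was higher and 9 lower, beside 10.9% of all genes higher and 15.1% lower. Among all 92 tested genes of the interferon and IFITM lists, 3 were called, all lower. These were Stat2 (−0.65, adjusted p = 0.038), a relay of type I interferon signaling, and the restriction factors Serinc5 (−0.57, adjusted p = 0.020) and Adar (−0.72, adjusted p = 0.047, and 0.055 with the sort as a block), beside 1.6% of all genes called lower. Without 3A10t replicate 1, 5 of 93 were called higher and 26 lower, beside 7.91% and 15.3% of all genes in that fit, and 0 of 92 were called when replicate 2 or 3 of 3A10t, or replicate 2 or 3 of EV no IL-2, was left out. Of the 14 IL-2 and STAT5 induced genes, Ccnd2, a cyclin (0.85, adjusted p = 0.039), and Socs2, a feedback inhibitor (0.44, adjusted p = 0.027), rose in 3A10t. Of all genes, 2.05% were called in this comparison in either direction.

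In 1G12t against EV no IL-2, 0 of the 92 genes were called (limma), with 3 higher and 2 lower at an unadjusted p under 0.05, where 7.04% of all genes passed. In 3A10t against 1G12t, 5 of 92 were called, all lower in 3A10t, beside 2.96% of all genes. They were Stat2 (−0.56, adjusted p = 0.043), Herc6 (−0.67, adjusted p = 0.046), Slfn8 (−0.78, adjusted p = 0.034), Cd274, which encodes the checkpoint ligand PD-L1 (−0.90, adjusted p = 0.021), and Serinc5 (−0.72, adjusted p = 0.0076). The log2 fold change of Ifitm3 in this comparison was positive, 0.66, and did not pass.

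For Ifitm1, Ifitm2 and Ifitm3, the 5 genes each with the most similar pattern over the 12 libraries were listed. None came from the interferon lists, but those made up only 0.807% of the genes compared, so this says nothing about the members. Cish and Lta belong to the list of IL-2 and STAT5 induced genes, which was left out of that count. Likeness was Pearson's correlation of log2(scaled TPM + 1) over 10042 genes with a mean of at least 5 TPM. Since 3 of the 12 libraries are EV+IL-2, it mostly ranks genes by how far those stand from the rest. The choice of members used those libraries. The closest to Ifitm1 was Tcrg-C2 (r = 0.986), a constant segment of the T cell receptor gamma chain, followed by Nrep, Top2a, Tcrg-C1 and Sema4a, with r of at least 0.981. Tcrg-C2 was also the closest to Ifitm2 (r = 0.992), followed by Tmem176b, Cish, Trgv2 and Tmem176a, with r of at least 0.985. The closest to Ifitm3 was Pigz (r = 0.99), an enzyme of membrane anchor synthesis, followed by Stc2, Trgv2, Crem and Lta, with r of at least 0.987.

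Tcrg-C2 was at 2.36, 2.81 and 2.07 scaled TPM in EV no IL-2, at 39.12, 36.51 and 31.64 in EV+IL-2, at 1.69, 1.46 and 5.73 in 1G12t and at 3.95, 4.36 and 4.21 in 3A10t. Its 1G12t replicate 3 was the high library of that group, as for Ifitm1, Ifitm2 and Ifitm3. Cish, a feedback inhibitor of IL-2 receptor signaling, was at 246.92, 240.67 and 234.39 in EV no IL-2 and 460.81, 429.87 and 453.60 in EV+IL-2. Among the members, r over the 12 libraries was 0.986 for Ifitm1 and Ifitm2, 0.984 for Ifitm2 and Ifitm3 and 0.975 for Ifitm1 with Ifitm3. Over the 9 libraries kept without IL-2 it was 0.874, 0.823 and 0.626, again with 1G12t replicate 3 among the points. Ifitm6 and Ifitm10 had r between −0.509 and 0.189 with those 3 genes over the 9 libraries.

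The cells had the markers of their label. The 7 Treg markers, Foxp3 among them, summed to 3623.20 to 5215.91 scaled TPM over the 12 libraries. The 2 NK cell markers summed to at most 0.52, the 2 CD8 T cell markers to 3.45 to 6.51 and the 4 B cell markers to 8.46 to 16.56. The 6 myeloid markers summed to 441.67 to 764.42, nearly all of it Cst3, a widely expressed protease inhibitor gene, while the defining marker Lyz2 was at no more than 0.48 in any library. The 5 erythroid markers moved with the IFITM genes, at 167.15 to 199.59 in EV+IL-2 and 41.96 to 93.03 in the other groups. Gata1, a transcription factor, made up most of that sum, Hba-a1 was at 14.16 to 23.82 in EV+IL-2 and at most 2.31 elsewhere, and Hba-a2, the second alpha globin gene, was at 8.83 to 15.51 and at most 0.85 elsewhere. Of the beta globin genes, Hbb-bt was at 1.21 to 1.94 in EV+IL-2 and at most 0.42 elsewhere, while Hbb-bs was at no more than 0.34 in EV+IL-2 and at most 1.42 elsewhere. The part of erythroid transcripts in the IFITM result was not tested. Depth is unknown, since TPM keep none, and the scaling factors ran from 0.854 to 1.093.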

How the data were processed

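The deposited values are TPM for 55228 gene symbols in 12 libraries. According to the submitters' processing notes and the methods, the authors trimmed reads with cutadapt 1.18, aligned them to mm10 with STAR 2.5.3 and estimated expression with RSEM 1.3.0 on a GENCODE annotation, and tested counts, not used here, with DESeq2 1.26. All columns were mapped to samples. Here TPM were divided by median-of-ratios factors, and the 15043 genes with a mean of at least 1 TPM were tested with limma 3.58.1 (R 4.3.3; lmFit and eBayes with a trend, two-sided) on log2(scaled TPM + 1), over all 12 libraries with one mean per group and no replicate block. Benjamini-Hochberg adjustment ran over all genes tested, and a call is an adjusted p under 0.05. TPM keep no depth, so the spread between libraries is the only error given. Code was tested on simulated data. Positions, transcripts and exons came from GENCODE M21, and sequences from RefSeq GRCm38.p6.

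The members and lists were chosen with earlier results of these data known. The genes named are all members, the 5 protein-coding neighbours on each side of the block, the 5 genes most correlated with each of Ifitm1, Ifitm2 and Ifitm3, and up to 4 called genes per direction and list. Others are said to have been singled out. The lists leave out 1 gene, which is not reported here. The replicate numbers pair libraries by the labels, as one sort. Over the 18 pairs with the same number the mean correlation of deviations from group means was 0.0409 (−0.105 to 0.155), with 3 over 0.1, and over pairs with different numbers it was −0.0205. No 2 libraries held identical values.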

Additional observations from a re-analysis of the deposited data

How the results depend on the processing

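The EV+IL-2 against EV no IL-2 differences of the members kept their direction under every alternative that gave a value. Ifitm6 fell below the minimum of 1 TPM without EV+IL-2 replicate 2 or 3, and Ifitm6 and Ifitm10 gave no value at a minimum of 5 TPM. With pseudocounts of 0.1 and 5 in place of 1 the log2 difference was 5.60 and 3.46 for Ifitm1 and 2.41 and 0.55 for Ifitm6, and with 0.1 it was −0.72 for Ifitm10. With any one library left out it stayed at 4.78 to 4.99 for Ifitm1, 3.20 to 3.35 for Ifitm2 and 3.39 to 3.58 for Ifitm3. No member was called in 1G12t against EV no IL-2 under any alternative. In 3A10t against EV no IL-2, the count of members called was 1 at an unadjusted p under 0.01 with a log2 fold change beyond 0.25, and it ranged from 0 to 1 with a library left out, as it did in 3A10t against 1G12t.

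Some log2 fold changes that did not pass the test changed sign. In 1G12t against EV no IL-2, Ifitm6 was at −0.18 with quantile normalization, and leaving out single libraries gave −0.12 to 0.12 for Ifitm6, −0.13 to 0.26 for Ifitm3 and −0.19 to 0.61 for Ifitm2. In 3A10t against 1G12t, Ifitm1 was at −0.016 with a pseudocount of 5 and −0.083 with TPM as deposited, and leaving out single libraries gave −0.29 to 0.54 for Ifitm1, −0.069 to 0.74 for Ifitm2 and −0.081 to 0.37 for Ifitm10. The cause was not tested.

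The number of interferon and IFITM list genes called was 27 in EV+IL-2 against EV no IL-2, 18 with no filter on low TPM, and 16 to 34 with a library left out. It was 16, 17 and 18 without EV no IL-2 replicate 3, EV+IL-2 replicate 1 and EV+IL-2 replicate 2. In 3A10t against EV no IL-2 it was 3, and it was 1 with no filter, 5 with a minimum of 5 TPM, 5 with TPM as deposited, 1 with quantile normalization, 0 when the fit held only the 6 libraries compared, 1 with eBayes without a trend, 16 at the unadjusted threshold, and 0 to 31 with a library left out, 31 without 3A10t replicate 1. In 3A10t against 1G12t it was 5, and under the same settings it was 1, 10, 12, 3, 0, 3 and 11, and 1 to 28 with a library left out, 28 without 3A10t replicate 1. The cause of these shifts was not tested beyond the smaller number of genes or libraries that some settings use.

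With the replicate number as a block, for the shared sort, no call of a member changed, with adjusted p of 0.10 for Ifitm3 and 0.16 for Ifitm1 in 3A10t against EV no IL-2 and 0.11 for Ifitm3 in 3A10t against 1G12t. The list counts under the block were 23 for EV+IL-2, 3 for 3A10t and 0 for 1G12t, each against EV no IL-2, and 6 for 3A10t against 1G12t. Among the named genes the block ended the calls of Ifngr1 and Ifit1bl1 in EV+IL-2 and of Adar in 3A10t, and in 3A10t against EV no IL-2 Jak2 was called in place of Adar (adjusted p = 0.0024 with the block and 0.086 without). With 3 cultures of one pool per group and no depth in TPM, differences of the size seen in 3A10t were not resolved for these genes.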
